A study of Mus musculus with 9 samples.

Results

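WNT signalling was followed here through 40 genes that were chosen by name: 12 WNT ligands, 14 receptors and co-receptors, 8 secreted antagonists, the R-spondin Rspo3, and 5 genes that are read out from the pathway or carry it to the nucleus (Axin2, Nkd1, Lef1, Tcf7 and Tcf7l2). They were chosen with earlier results of these data known. All 40 were among the 55471 genes listed for each culture. Of them, 34 were among the 15362 genes with enough reads to be tested. The cells were primary chondrocytes, the cells that make cartilage matrix, isolated from the knee joint surfaces of wild-type mice at postnatal day 5. There were 3 groups of 3 cultures: Control, Ad-OSCAR, in which an adenovirus delivered Oscar, a collagen receptor, and Ad-OSCAR treated with 5-ASA, an aminosalicylate used against bowel inflammation. By the study's methods every culture, Control included, carried an adenovirus, grew on plates coated with the OSCAR-binding collagen peptide and received no IL-1β. The methods give 10 µM 5-ASA for 24 h, and ICR or C57BL/6 J as the mouse strain. The study's reporting summary gives male and female ICR mice for primary chondrocytes, without naming these libraries. The sample annotations describe 3 days of culture, infection at 400 MOI for 2 h and a further 36 h before 5-ASA, whereas the methods give 2 days of culture and another virus dose, so the exact schedule is not settled. The library kit kept strand but no source used here says how strand was counted. Of the 40 genes 17 overlap another annotated gene, 14 of them on the opposite strand, so reads of such pairs may be split uncertainly. These 17 are Wnt2b, Wnt5a, Wnt5b, Wnt6, Wnt7b, Wnt11, Fzd3, Fzd5, Fzd6, Ror1, Sfrp2, Axin2, Lef1, Tcf7, Tcf7l2, Nkd1 and Rspo3. Nothing in the sources used here says that the 3 cultures of a group came from separate animals, so each p-value measures the spread between cultures only. In bulk RNA of this kind, fewer cells of a type cannot be told apart from less RNA per cell.

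WNT proteins are secreted lipid-modified ligands that bind Frizzled receptors on the cell surface. With the co-receptors LRP5 or LRP6 they stabilise β-catenin, which enters the nucleus, binds TCF and LEF factors and switches on target genes such as Axin2, itself a brake on the pathway. Other ligands, WNT5A among them, act mostly through Frizzleds with ROR1 or ROR2 and without β-catenin. Secreted antagonists either capture the ligand (the SFRP family, FRZB and WIF1) or block LRP5 and LRP6 (DKK1), and R-spondins keep Frizzleds on the cell surface. In cartilage the pathway needs to be held in balance, and FRZB and DKK1 are among the antagonists long studied in osteoarthritis.

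The libraries held 19733464 to 28192769 estimated counts each. Oscar was checked first: Control libraries held 3 to 4 of its counts, Ad-OSCAR libraries 173445 to 187278 and libraries with 5-ASA 80766 to 94199, so the labels of the virus groups hold, and Oscar itself was lower with the drug (log2FC -0.97 ± 0.06, adjusted p = 1.76e-08). The cultures carried the markers of chondrocytes, at lower levels in both Ad-OSCAR groups: all 9 markers tested fell in Ad-OSCAR against Control, with a summed level of 37864 to 43478 CPM (counts scaled to a common library size by TMM) in Control, 2366 to 2696 CPM in Ad-OSCAR and 2827 to 3280 CPM with 5-ASA. Of 6 markers of superficial or synovial cells 3 rose and 2 fell, and their summed level went from 379 to 403 CPM in Control to 1196 to 1214 CPM in Ad-OSCAR and 1016 to 1113 CPM with 5-ASA. Of 6 osteoblast markers 3 fell, and their sum went from 58.6 to 66.5 CPM in Control to 10.6 to 15.3 CPM and, with 5-ASA, 24.7 to 26.5 CPM. The sums over 6 myeloid, 4 endothelial, 4 muscle and 3 adipocyte markers lay at 5.59 to 7.61, 0.423 to 1.04, 0.423 to 0.575 and 11.0 to 14.8 CPM in Control and at 13.2 to 14.5, 2.09 to 2.80, 0.102 to 1.11 and 28.2 to 31.3 CPM in Ad-OSCAR. With 5-ASA they were 12.002 to 12.117, 1.35 to 1.79, 0.0395 to 0.219 and 26.9 to 31.2 CPM. Ptprc (at most 2 counts), Adgre1 (at most 3), Cdh5 (at most 2), Adipoq (at most 2) and Myod1 (0), which define those cell types, were at or near 0 in every culture. Other markers of the same lists were higher in Ad-OSCAR: Cd68 (log2FC 2.06) and Lyz2 (0.43) of the myeloid list, Tek (1.88) of the endothelial list and Fabp4 (1.25) of the adipocyte list rose. The part of these shifts in the results on WNT genes was not tested.

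The cultures transcribed many parts of the pathway. On the TPM scale (a transcript level per gene length), 31 of the 40 genes averaged at least 1 TPM in Control and 27 in Ad-OSCAR, as the plot of TPM by culture shows. Summed TPM was 303 ± 14.3 for the 14 receptors in Control, 91.8 ± 8.13 for the 8 antagonists, 33.04 ± 0.667 for the 12 ligands and 34.3 ± 1.34 for Rspo3 alone (mean ± SD, n = 3). Fzd2, Lrp5 and Fzd1 were the highest of the 14 member receptors in Control at 52.0 ± 4.25, 44.6 ± 2.96 and 43.5 ± 2.65 TPM, and the last pair do not differ beyond their spread. Sfrp2 held 70.7% ± 3.81 of the antagonist sum, and Wnt5a held 42.1% ± 2.50 of the ligand sum. The 6 members left untested, Wnt2, Wnt6, Wnt7b, Fzd10, Sfrp5 and Dkk2, had at most 8 counts in any culture, so any change in them was not detectable at this depth.

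**Figure D1:**
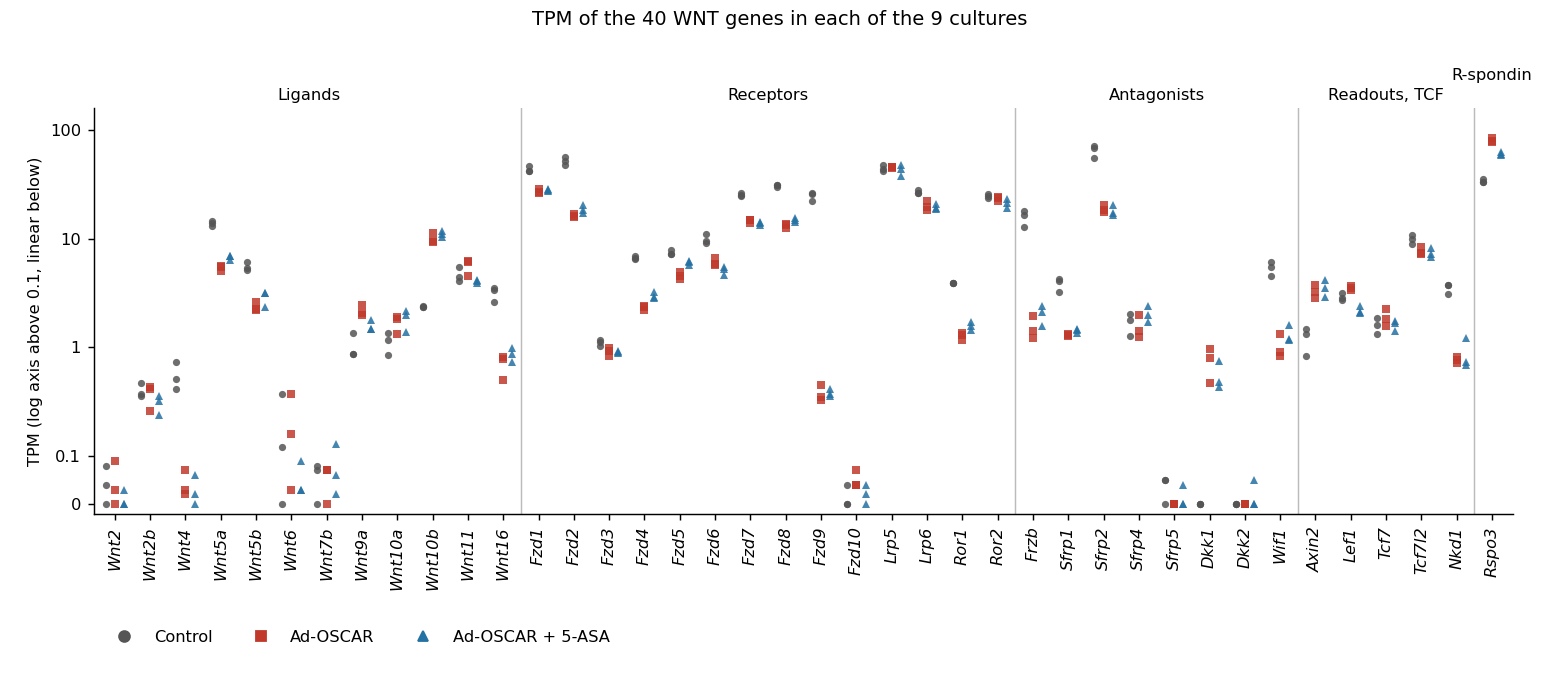
TPM of each of the 40 genes (log axis above 0.1 TPM, linear below) in the 9 cultures, 3 points a group, ordered by role. Most receptors and the antagonists Frzb, Sfrp1, Sfrp2 and Wif1 lie lower in both Ad-OSCAR groups than in Control, whereas Wnt10b, Rspo3, Axin2 and Dkk1 lie higher.

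The first comparison asked what OSCAR overexpression did to these genes. Of the tested genes, 11 of 13 receptors and 4 of 6 antagonists fell, ligands moved in both directions, and Axin2 and Rspo3 rose. With edgeR (quasi-likelihood, p-values adjusted by Benjamini and Hochberg over all genes tested), 6 of the 34 tested members rose and 21 fell in Ad-OSCAR against Control, and 7 did not pass. Among all genes tested 32.7% rose and 32.2% fell. Of the 34, 17.6% rose, below that background, and 61.8% fell, above it. Since the list was chosen with earlier results of these data known, this describes the list and is not an independent contrast. Changes of more than 1.5 on the log2 scale were met by 13 members, 2 up and 11 down, against 9.95% of all genes in either direction. The median log2 change was -0.70 over the 34 members and 0.02 over all genes, with Dkk1 at its lower bound. Dkk1 and Wnt4 entered the test only through the group in which each was high, so their differences were in part set by the filter.

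Among the ligands, Wnt5a, which mostly acts without β-catenin, fell, and Wnt10b, known to drive β-catenin signalling and bone formation, rose. Wnt5a stood at 37.9, 36.7 and 37.95 CPM in the Control cultures and at 14.8, 15.5 and 15.1 CPM in Ad-OSCAR (log2FC -1.31 ± 0.06, adjusted p = 6.27e-13; SE after the ± sign throughout). Wnt10b (chr15:98770712-98778150, minus strand, GRCm38) stood at 3.40, 3.33 and 3.33 CPM in Control and at 14.1, 13.1 and 12.9 CPM in Ad-OSCAR, 3.999-fold higher (log2FC 2.00 ± 0.10, adjusted p = 1.84e-12). In neither gene did the 2 groups overlap. As a share of the summed ligand TPM, Wnt5a went from 42.1% ± 2.50 to 18.8% ± 0.912 and Wnt10b from 7.17% ± 0.126 to 35.1% ± 1.92, which put Wnt10b first, ahead of Wnt11 (19.6% ± 2.16) and Wnt5a, whose shares overlapped. The ligand sum itself was 33.04 ± 0.667 TPM in Control and 28.7 ± 2.54 TPM in Ad-OSCAR.

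Wnt5b, the close relative of Wnt5a, and Wnt16, a ligand known for its role in bone and joint tissue, fell too. Wnt5b measured 6.75, 6.33 and 7.45 CPM in Control and 3.12, 2.67 and 2.62 CPM in Ad-OSCAR (log2FC -1.28 ± 0.14, adjusted p = 2.23e-07), and it overlaps Fbxl14 on the opposite strand. Wnt16 measured 2.93, 2.92 and 2.27 CPM against 0.712, 0.451 and 0.655 CPM (log2FC -2.14 ± 0.24, adjusted p = 3.23e-07). All Ad-OSCAR values of both genes lay below all Control values. Wnt4 had 21, 30 and 34 counts in Control and 5, 1 and 2 in Ad-OSCAR (log2FC -3.69 ± 0.51, adjusted p = 4.71e-06). It was thus close to the limit of detection in Ad-OSCAR.

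On the other side, Wnt9a, a ligand of joint formation, measured 1.65, 2.55 and 1.64 CPM in Control and 4.51, 3.81 and 3.86 CPM in Ad-OSCAR (log2FC 1.04 ± 0.18, adjusted p = 5.04e-05), with no overlap. Wnt10a, the nearest relative of Wnt10b, passed narrowly (log2FC 0.56 ± 0.23, adjusted p = 0.044), its groups overlapped, and it no longer passed without Control replicate 1 or 2 or without Ad-OSCAR replicate 1 or 2 (adjusted p = 0.191, 0.0750, 0.134 and 0.121). Wnt2b and Wnt11 did not pass.

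**Figure D2:**
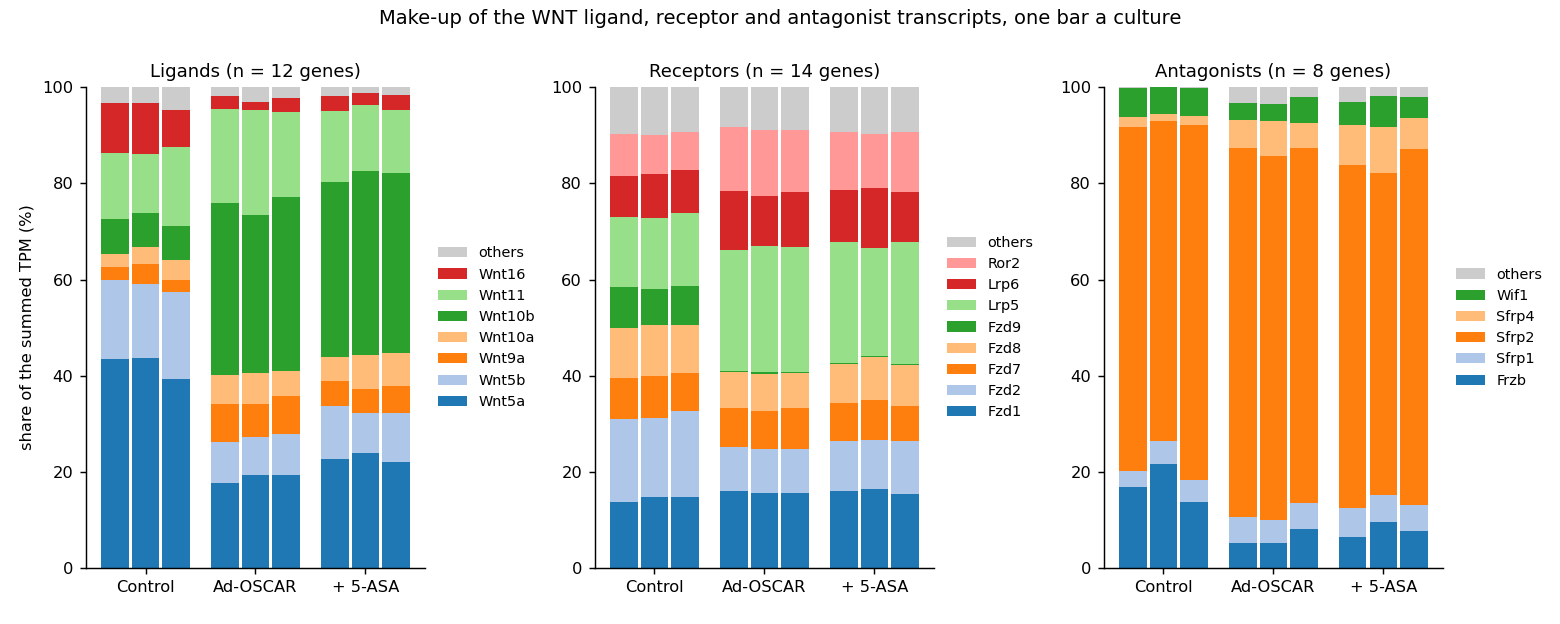
Share of the summed TPM (%) held by each gene among the ligands, receptors and antagonists, one bar a culture, with genes under 5% in every culture pooled as others. Wnt10b widens from 7.17% to 35.1% of the ligands between Control and Ad-OSCAR, and Fzd9 narrows from 8.18% to 0.214% of the receptors.

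Each of the 9 Frizzled receptors that could be tested fell in Ad-OSCAR, and so did Lrp6 and Ror1: 11 of the 13 tested receptors fell and none rose. The 10 Frizzleds together went from 202 ± 9.74 TPM to 85.9 ± 1.81 TPM. Fzd9 (chr5:135248938-135251230, minus strand, GRCm38), a Frizzled known from bone formation, was nearly lost: it had 718, 683 and 623 counts in the Control cultures and 12, 14 and 12 in the Ad-OSCAR cultures, 66.8-fold lower (log2FC -6.06 ± 0.14, adjusted p = 6.83e-17). Every other tested Frizzled had at least 155 counts in each culture of both groups.

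Fzd2, the highest of the 14 in Control on the TPM scale, measured 110.3, 99.9 and 119 CPM there and 34.4, 34.2 and 32.6 CPM in Ad-OSCAR (log2FC -1.70 ± 0.07, adjusted p = 7.76e-14). Fzd4, which also serves as the receptor of norrin, measured 26.3, 25.7 and 27.8 CPM and 9.19, 8.86 and 8.98 CPM (log2FC -1.56 ± 0.07, adjusted p = 9.01e-13). Ror1, a receptor tyrosine kinase-like protein that binds WNT5A, measured 13.3, 13.2 and 13.4 CPM and 4.27, 3.98 and 4.44 CPM (log2FC -1.65 ± 0.10, adjusted p = 4.86e-11). These 3 and Fzd9 were the 4 receptors past 1.5 on the log2 scale, and in none of them did the groups overlap.

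Fzd8 measured 111, 106 and 112 CPM in Control and 46.2, 48.0 and 42.5 CPM in Ad-OSCAR (log2FC -1.27 ± 0.05, adjusted p = 1.96e-13), and Fzd6, whose best known part is in planar cell polarity, 21.3, 21.8 and 19.98 CPM and 9.33, 10.1 and 9.86 CPM (log2FC -1.11 ± 0.08, adjusted p = 6.55e-10). Smaller falls were measured for Fzd7 (log2FC -0.84), Fzd5 (-0.72), Fzd1 (-0.69), Lrp6 (-0.35) and Fzd3 (-0.30, adjusted p = 0.0104). Fzd3 overlaps genes on both strands. Of these smaller falls, that of Fzd3 was the one that did not pass on the TPM scale (adjusted p = 0.313 on log2(TPM + 1)).

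Of the 13 tested receptors, Lrp5 and Ror2 did not pass. Lrp5 measured 132, 127 and 142 CPM in Control and 132, 136 and 131 CPM in Ad-OSCAR, overlapping groups, with a 95% interval of the log2 difference from -0.13 to 0.13 (adjusted p = 0.978). Its share of the summed receptor TPM went from 14.7% ± 0.373 to 25.8% ± 0.552, which made it the highest of the 14 in Ad-OSCAR. Ror2 had a 95% interval from -0.25 to 0.01. Whether either differed from the Frizzleds in its response was not tested.

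**Figure D3:**
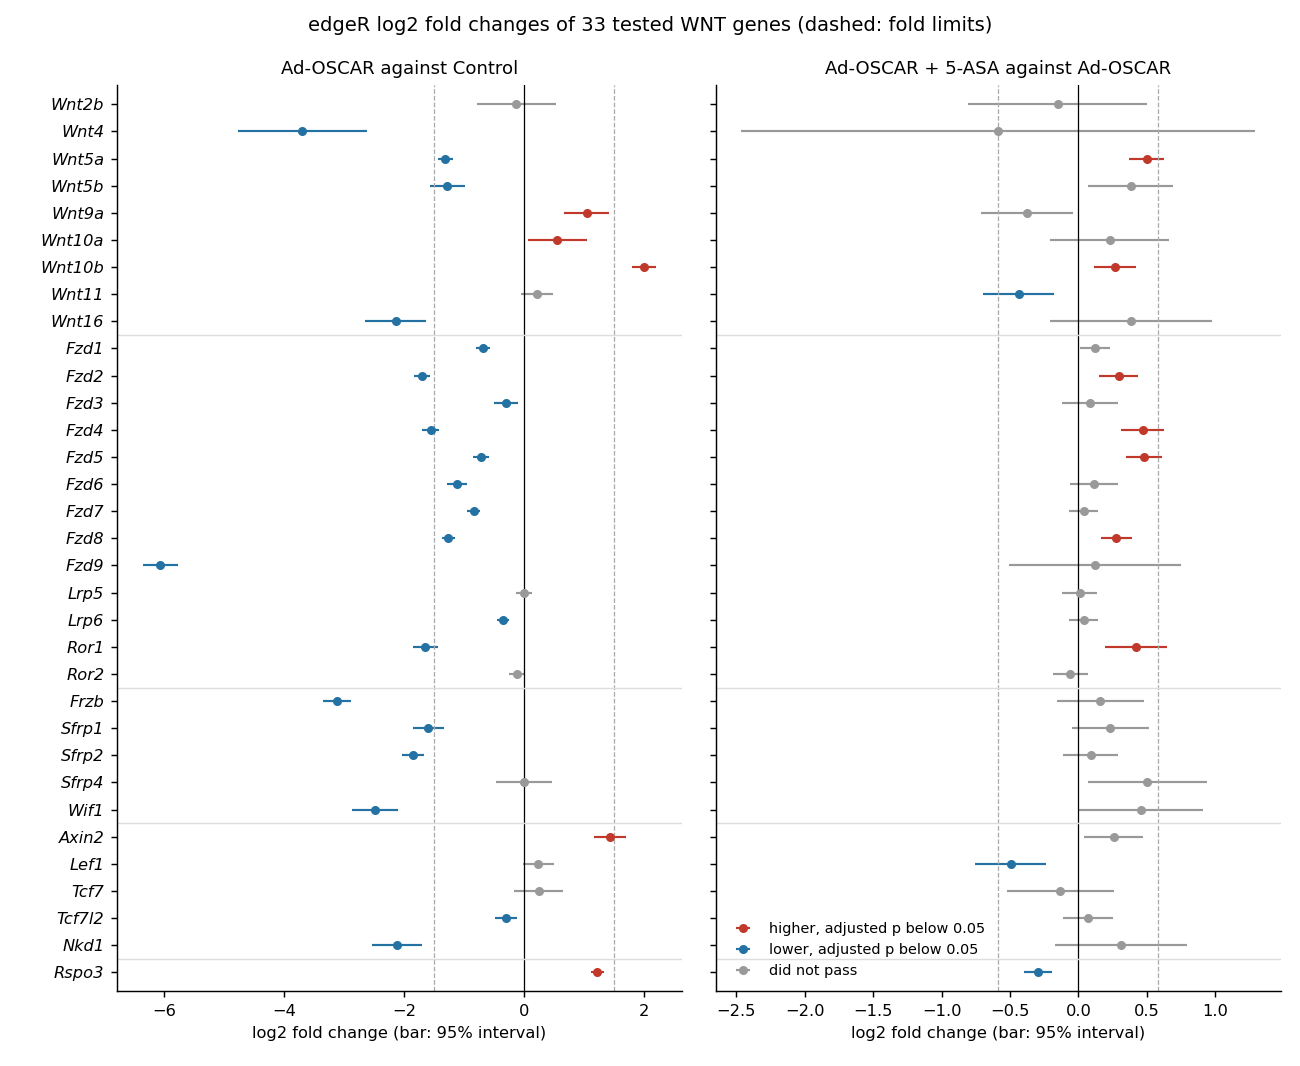
Log2 fold changes of 33 tested members with 95% intervals, for Ad-OSCAR against Control (left) and for 5-ASA-treated against untreated Ad-OSCAR cultures (right, another scale), with dashed lines at the fold limits. Dkk1, at 0 counts in Control, is left out, and on the left Fzd9 (-6.06), Wnt4 (-3.69) and Frzb (-3.12) lie farthest from 0.

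Of the 6 tested antagonists 4 fell by more than 1.5 on the log2 scale, Dkk1 rose and Sfrp4 did not pass. Frzb (chr2:80411970-80447625, minus strand, GRCm38), the Frizzled-related protein first found in cartilage, measured 19.7, 20.3 and 19.6 CPM in Control and 2.14, 1.97 and 2.73 CPM in Ad-OSCAR, 8.68-fold lower (log2FC -3.12 ± 0.11, adjusted p = 4.05e-14). Wif1, which captures WNT ligands, measured 6.65, 5.46 and 6.24 CPM and 0.950, 0.943 and 1.35 CPM (log2FC -2.49 ± 0.18, adjusted p = 8.06e-10). In both genes the lowest Control culture stood more than 3 times above the highest Ad-OSCAR culture.

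Sfrp2, in all 3 groups the most abundant of the 8 antagonists listed as members, measured 76.0, 59.7 and 75.1 CPM in Control and 17.9, 21.4 and 18.8 CPM in Ad-OSCAR (log2FC -1.86 ± 0.09, adjusted p = 1.41e-12). Sfrp1 measured 8.26, 10.3 and 10.8 CPM and 3.29, 3.24 and 3.16 CPM (log2FC -1.60 ± 0.12, adjusted p = 1.55e-09). The antagonist sum went from 91.8 ± 8.13 to 25.0 ± 1.67 TPM, and Sfrp2 held 75.5% ± 1.54 of it. Dkk1 (chr19:30545863-30549665, minus strand, GRCm38), the LRP5 and LRP6 blocker, had 0 counts in every Control culture and 31, 32 and 17 counts in Ad-OSCAR. Against a floor of 3 counts per library this is at least 7.04-fold higher (adjusted p = 2.26e-06). At 0.743 ± 0.250 TPM it remained a small part of the antagonist sum, 2.94% ± 0.856.

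The genes read out from the pathway did not move one way. Axin2 (chr11:108920349-108950783, plus strand, GRCm38), a widely used readout of β-catenin, measured 2.74, 2.05 and 2.43 CPM in Control and 6.55, 6.77 and 6.18 CPM in Ad-OSCAR, 2.71-fold higher (log2FC 1.44 ± 0.13, adjusted p = 1.24e-08). Nkd1, another target that restrains the pathway by binding Dishevelled, measured 4.25, 3.62 and 4.23 CPM in Control and 1.02, 0.943 and 0.800 CPM in Ad-OSCAR, 4.34-fold lower (log2FC -2.12 ± 0.20, adjusted p = 2.72e-08). Neither gene's groups overlapped, and both changes passed in each of 19 other settings of the analysis. Axin2 overlaps a gene on the opposite strand and Nkd1 one on its own strand.

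Of the TCF and LEF factors, Tcf7l2, the most abundant of the 3, fell slightly, from 15.5, 14.2 and 17.0 CPM to 11.6, 12.5 and 13.5 CPM (log2FC -0.31 ± 0.09, adjusted p = 0.00474). Lef1 (6.32, 4.56 and 5.02 CPM in Control, 6.04, 6.19 and 6.47 CPM in Ad-OSCAR) and Tcf7 (1.79, 2.10 and 2.43 CPM and 2.37, 3.03 and 2.07 CPM) overlapped between groups and did not pass. The 95% intervals of their log2 differences ran from -0.03 to 0.50 and from -0.17 to 0.65. Without Control replicate 1, the highest Control culture for Lef1, Lef1 passed (log2FC 0.38, adjusted p = 0.0163).

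Rspo3 (chr10:29452416-29535867, minus strand, GRCm38) rose from 57.1, 62.0 and 57.9 CPM in Control to 136, 135 and 143 CPM in Ad-OSCAR (log2FC 1.22 ± 0.05, adjusted p = 2.53e-13), with no overlap. On the TPM scale it went from 34.3 ± 1.34 to 81.0 ± 3.28 TPM, which is above the summed 28.7 ± 2.54 TPM of the 12 ligands in the same cultures.

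**Figure D4:**
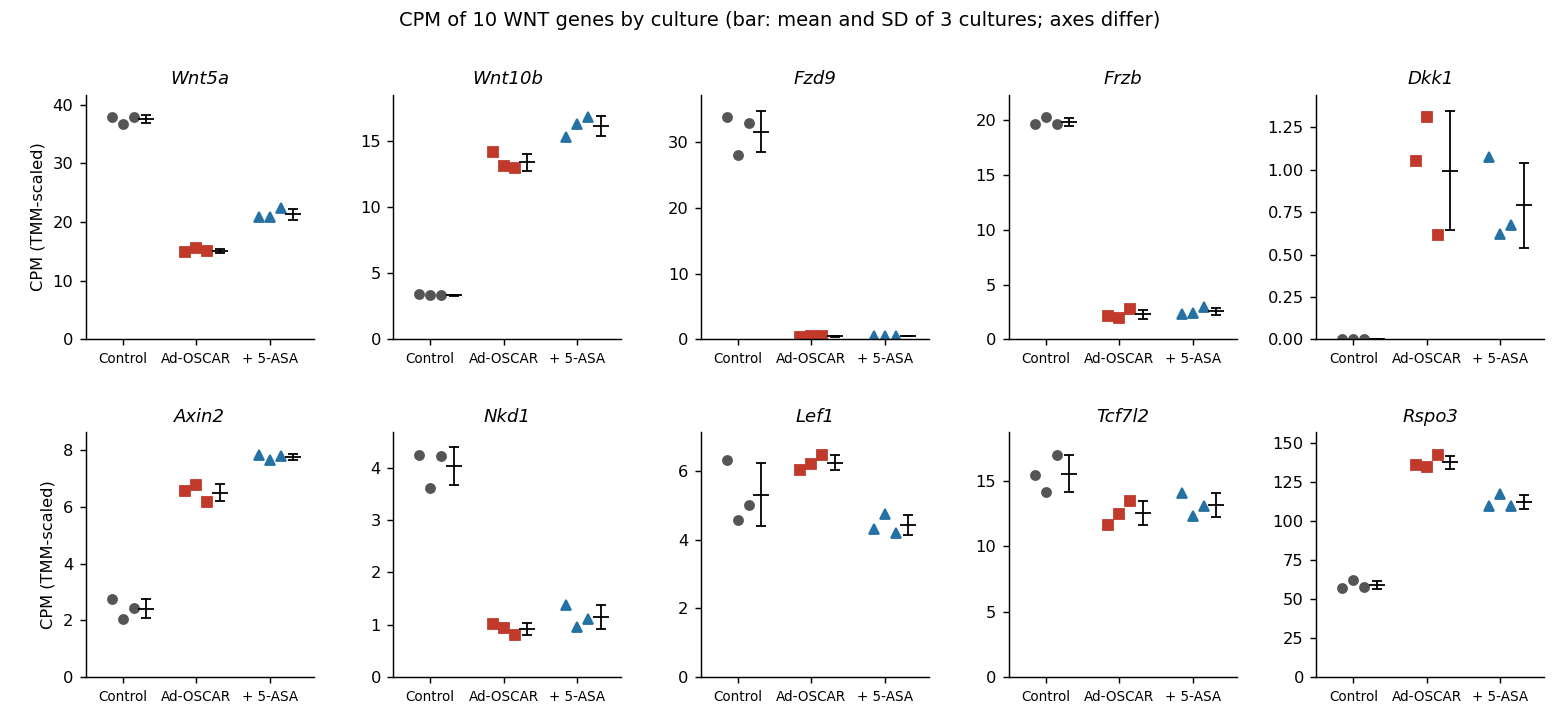
CPM of 10 genes in each of the 9 cultures, with the mean and SD of the 3 cultures of a group beside the points (each axis starts at 0, scales differ). Wnt10b, Dkk1, Axin2 and Rspo3 are higher and Wnt5a, Fzd9, Frzb and Nkd1 lower in all Ad-OSCAR cultures than in all Control cultures, and 5-ASA cultures separate from untreated ones in Wnt5a, Wnt10b, Axin2, Lef1 and Rspo3.

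The second comparison asked what 5-ASA changed in Ad-OSCAR cultures. The changes were small: 7 of the 34 tested members rose, 3 fell, 24 did not pass, and none of those called changed by more than 1.5-fold. Among all genes tested, 10.4% rose, 7.38% fell and 2.71% also changed by more than 1.5-fold. The members that rose were Wnt5a, Wnt10b, Fzd2, Fzd4, Fzd5, Fzd8 and Ror1, and those that fell were Wnt11, Lef1 and Rspo3. The median log2 change was 0.12 over the members and -0.00 over all genes. The count of rises depended on the setting: limma on log2(TPM + 1), log2(TPM + 0.1) and unfiltered log2(TPM + 1) called 2, 3 and 0 of the members as higher. These 3 TPM settings had no TMM scaling between cultures. On the first scale the median of all genes shifted to -0.09 and the split of all calls turned from 1598 up and 1134 down to 542 up and 1437 down. The 3 TPM settings all kept Lef1 and Rspo3 as lower.

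Wnt5a rose in part towards its Control level, from 14.8, 15.5 and 15.1 CPM without the drug to 20.8, 20.8 and 22.4 CPM with it (log2FC 0.50 ± 0.06, adjusted p = 1.25e-05), which left it below Control (log2FC -0.81 ± 0.06, adjusted p = 4.23e-10). Wnt10b moved further from Control, from 14.1, 13.1 and 12.9 CPM to 15.3, 16.3 and 16.8 CPM (log2FC 0.27 ± 0.07, adjusted p = 0.0152). That rise did not pass on the TPM scale (adjusted p = 0.321 on log2(TPM + 1)), nor without replicate 3 of either group (adjusted p = 0.0578 and 0.0554). Wnt11, a ligand known from cell movement, measured 5.29, 5.45 and 4.76 CPM without and 4.23, 3.54 and 3.68 CPM with 5-ASA (log2FC -0.44 ± 0.12, adjusted p = 0.0187). It too depended on single cultures, with adjusted p between 0.0571 and 0.0778 when Ad-OSCAR replicate 1 or 2 or 5-ASA replicate 2 or 3 was left out.

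Among the receptors 5 of 13 rose and none fell. Fzd5 measured 16.9, 18.3 and 19.2 CPM in Ad-OSCAR and 24.5, 26.1 and 25.1 CPM with 5-ASA (log2FC 0.48 ± 0.06, adjusted p = 3.5e-05), part of the way to its Control values of 29.3, 28.9 and 31.4 CPM, from which it still differed (log2FC -0.24 ± 0.06, adjusted p = 0.00249). Fzd4 went from 9.19, 8.86 and 8.98 CPM to 12.04, 12.3 and 13.2 CPM (log2FC 0.47 ± 0.08, adjusted p = 0.00022). The treated cultures of both genes thus lay above all untreated ones and below all Control cultures.

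Fzd2 went from 34.4, 34.2 and 32.6 CPM to 41.0, 38.6 and 44.7 CPM (log2FC 0.30 ± 0.07, adjusted p = 0.00476) and Fzd8 from 46.2, 48.0 and 42.5 CPM to 53.5, 55.3 and 56.9 CPM (log2FC 0.28 ± 0.05, adjusted p = 0.00109). Ror1 went from 4.27, 3.98 and 4.44 CPM to 6.23, 5.69 and 5.10 CPM (log2FC 0.42 ± 0.11, adjusted p = 0.01), a rise that did not pass without 5-ASA replicate 1 (adjusted p = 0.0620). On log2(TPM + 1), Fzd5 kept its call (adjusted p = 0.0237), whereas Fzd4, Fzd2, Fzd8 and Ror1 did not (adjusted p = 0.0539, 0.136, 0.0801 and 0.214). Fzd9 stayed at 13, 15 and 12 counts and did not pass, with a 95% interval of the log2 difference from -0.51 to 0.75. Lrp5 measured 139, 119 and 144 CPM with 5-ASA and did not pass, with an interval from -0.12 to 0.14. The Frizzled sum was 91.3 ± 2.99 TPM with 5-ASA, against 85.9 ± 1.81 TPM without it.

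None of the 6 tested antagonists passed in either direction. Frzb measured 2.31, 2.44 and 2.92 CPM with 5-ASA, Sfrp2 20.1, 19.3 and 22.3 CPM, Sfrp1 3.89, 3.68 and 3.83 CPM and Wif1 1.31, 1.75 and 1.38 CPM. The 95% intervals of their log2 differences from untreated Ad-OSCAR cultures ran from -0.15 to 0.48, -0.11 to 0.29, -0.05 to 0.52 and 0.00 to 0.91. Sfrp1 and Sfrp4 (log2FC 0.50 ± 0.21, adjusted p = 0.104) did not overlap the untreated cultures, yet missed the threshold. Dkk1 had 28, 17 and 17 counts with 5-ASA and overlapped the untreated cultures.

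Lef1, a factor that partners β-catenin, fell from 6.04, 6.19 and 6.47 CPM without to 4.31, 4.74 and 4.19 CPM with 5-ASA (log2FC -0.50 ± 0.12, adjusted p = 0.00917), and it passed in each of the 19 other settings. Rspo3 fell as well, from 136, 135 and 143 CPM to 109.6, 117 and 109 CPM (log2FC -0.30 ± 0.05, adjusted p = 0.000282), also in each of the 19, and stayed well above Control (log2FC 0.92 ± 0.05, adjusted p = 1.73e-11). Axin2 measured 7.85, 7.66 and 7.79 CPM with 5-ASA, above every untreated Ad-OSCAR culture, but did not pass (log2FC 0.26 ± 0.10, adjusted p = 0.0947). Nkd1 (1.38, 0.948 and 1.11 CPM), Tcf7 (2.38, 2.01 and 2.41 CPM) and Tcf7l2 (14.1, 12.3 and 13.1 CPM) overlapped the untreated cultures and did not pass. Oscar itself was lower in the same 5-ASA cultures, and 5 of 9 chondrocyte markers rose. Among osteoblast markers Ibsp (log2FC 1.27) and Alpl (0.91) rose, and among superficial or synovial markers Thy1 rose (0.80) and Prg4 (-0.18) and Pdpn (-0.26) fell. Cd68 (-0.38) and Tek (-0.69) were lower as well, but passed in only 9 of 19 and 9 of 16 other settings. The part of Oscar or any of these markers in the changes was not tested.

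The third comparison set 5-ASA-treated Ad-OSCAR cultures against Control, and it shares cultures with the others. Here 7 of the 34 members rose and 21 fell, against 31.4% and 31.8% of all genes tested. Of the members 10 passed 1.5 on the log2 scale, against 8.59% of all genes. The 21 were not the same as in Ad-OSCAR: Fzd3 did not pass (adjusted p = 0.0560) and Ror2 fell (log2FC -0.18 ± 0.06, adjusted p = 0.0165). Beside the members that rose in Ad-OSCAR, Sfrp4 rose (1.74 ± 0.379 CPM in Control and 2.43 ± 0.263 CPM with 5-ASA, mean ± SD; log2FC 0.50 ± 0.21, adjusted p = 0.0487), a call that held in 7 of 19 other settings. Apart from Wnt4, Fzd9 (-5.94), Frzb (-2.96) and Wif1 (-2.04) still had the lowest log2 changes. Wnt4 (-4.28) had 4, 0 and 1 counts with 5-ASA and entered the test through Control, so its value rests on counts near 0. Axin2 (1.70) and Wnt10b (2.27) were farther above Control than Rspo3 (0.92). Dkk1, at 0 counts in Control, was at least 5.6-fold higher against a floor of 3 counts per library. Wnt5a took 22.9% ± 0.915 and Wnt10b 37.5% ± 0.860 of the ligand TPM in these cultures.

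A further 73 genes of the pathway, also chosen with earlier results of these data known, were examined beside the members. Of these 73 genes 57 could be tested. In Ad-OSCAR against Control 19 rose and 24 fell, with 8 past 1.5 on the log2 scale, 2 of them up. These are 33.3% and 42.1% of the 57, against 32.7% and 32.2% of all genes tested, so the share that rose was near the background. Of all genes tested 9.95% were past 1.5 in either direction. The 3 that fell most, among those called with a mean of at least 1 CPM, were all antagonists or antagonist partners: Lrp4, which binds sclerostin, from 47.4, 47.5 and 44.5 to 6.11, 6.64 and 6.15 CPM (log2FC -2.89), Sostdc1, a sclerostin-domain protein (-2.55), and Dkk3 from 396, 391 and 396 to 116, 117 and 117 CPM (-1.76). The 3 that rose most under the same limit were Lgr6, Rspo2 and Celsr3. Lgr6, a receptor for R-spondins, went from 5.43, 7.07 and 7.56 to 23.0, 26.9 and 23.6 CPM (1.87). Rspo2, the companion of Rspo3, went from 54.9, 53.7 and 52.7 to 109.8, 108 and 111 CPM (1.02). Celsr3, a cadherin of planar polarity, rose by 0.88. Celsr1, described below, rose more than Rspo2, but its mean was under that limit. Of the R-spondin genes that could be tested, Rspo2 and Rspo3, both rose, and their receptors Lgr6 rose, Lgr4 fell (log2FC -0.55) and Lgr5 did not pass. Of 6 further target genes tested, 1 rose and 4 fell, among them Ccnd1 (log2FC -1.58) and Myc (-0.93), which were named after their values were seen. Of 17 cytoplasmic components 8 rose and 3 fell, and Ctnnb1, which encodes β-catenin, was 1 of the 3 (log2FC -0.43). Of the 8 tested genes listed as further antagonists 5 fell, Draxin (0.80) and Kremen1 (0.42) rose and Notum did not pass. Both genes for ligand secretion, Wls (-0.35) and Porcn (-0.74), fell.

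With 5-ASA 21 of these 57 genes rose and 4 fell, with 5 past 1.5-fold, 4 of them up. The shares were 36.8% and 7.02%, against 10.4% and 7.38% of all genes tested, so the share that fell was near the background. Of all genes tested 2.71% were past 1.5-fold. All 6 tested target genes rose, led by Ccn5, a matricellular protein, from 97.6, 111 and 90.8 to 202, 179.8 and 193 CPM (log2FC 0.94 ± 0.07, adjusted p = 3.48e-08). Of the 8 tested genes listed as antagonists 7 rose and none fell. Draxin went from 17.9, 18.7 and 14.2 to 33.4, 33.8 and 31.2 CPM (log2FC 0.96 ± 0.08, adjusted p = 2.74e-07). Sostdc1 went from 0.509, 1.07 and 0.618 to 1.42, 1.82 and 1.62 CPM (log2FC 1.17 ± 0.26, adjusted p = 0.00408). Sostdc1 and Ccn5 had fallen with OSCAR, whereas Draxin had risen. Tle1, a co-repressor of TCF factors, went from 31.1, 33.01 and 31.7 to 24.4, 25.1 and 25.3 CPM (log2FC -0.36 ± 0.05, adjusted p = 9.68e-05), and Dvl2 (log2FC -0.21) and Rspo2 (-0.14) fell slightly. The fourth, the planar polarity cadherin Celsr1, was the one fall past 1.5-fold (log2FC -1.71 ± 0.34, adjusted p = 0.00173), with 26, 36 and 36 counts in untreated and 11, 11 and 7 in treated cultures, after a rise with OSCAR (log2FC 1.69). It was named after its values were seen. Against Control, 22 of the 57 rose and 20 fell in 5-ASA-treated cultures (38.6% and 35.1%), near the 31.4% and 31.8% of all genes tested.

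The promoters of the members were read for the core letters of a TCF/LEF site, since the members included both β-catenin readouts and genes that changed together. The letters searched were CTTTGA and, on the other strand, TCAAAG, within 250 bases before each RefSeq start on GRCm38.p6. The table held 36 starts of 28 members, and 7 starts (19.4%) had a match, against 4544 of 32851 starts of all genes (13.8%). The 9 matches lay in 7 members, and each is shown with its surroundings, the match in capitals, because these are the members whose windows hold the letters:
Wnt5b, chr6:119449440-119449469, minus strand: gagtaagtctctCTTTGAtctgctccctgt
Wnt11, chr7:98835050-98835079, plus strand: gacgtgggcggaTCAAAGcgacggtccgcg
Fzd1, chr5:4758441-4758466, minus strand: cgcagcacTCAAAGtagcagtctgtg
Ror1, chr4:100095574-100095603, plus strand: cgtcaaaatgtcTCAAAGgtcccatcaaca
Frzb, chr2:80447474-80447503, minus strand: tcccctgaaaacTCAAAGccttctcggaag
Dkk1, chr19:30549653-30549682, minus strand: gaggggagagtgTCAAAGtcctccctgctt
Dkk1, chr19:30549596-30549625, minus strand: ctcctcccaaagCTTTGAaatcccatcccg
Lef1, chr3:131156102-131156131, plus strand: taaaatacatggTCAAAGgaaaataggtat
Lef1, chr3:131156162-131156191, plus strand: cattgtctgttcTCAAAGtcaggtcttgca
Of the genes in this set, Wnt5b, Fzd1, Ror1 and Frzb fell with OSCAR, Dkk1 rose, and Wnt11 and Lef1 did not pass. Dkk1 and Lef1 each had 2 matches in 1 window, and 1.37% of all starts had 2 or more. By the GENCODE M21 annotation the matches of Wnt11, Fzd1 and Ror1 lie upstream of the gene, that of Frzb and the second of Dkk1 in an untranslated region, and those of Wnt5b and Lef1 in an intron. The first Dkk1 match spans the annotated start of the gene. The windows of Axin2, Nkd1, Wnt10b and Fzd9 held no such letters, which says nothing of sites elsewhere.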

How the data were processed

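RNA-seq of 9 mouse chondrocyte cultures (3 groups of 3, by their labels) was used, 1 file per culture. The authors made stranded poly(A) libraries, trimmed reads with BBDuk, and ran STAR 2.7.1a and RSEM 1.3.1 on GRCm38 per the submitters' processing notes; the study's text also names another RSEM version with a GENCODE annotation for normalized values, and the strand setting is not given in the sources used here. The deposited values are estimated counts, not scaled between cultures, and TPM per culture. The effective transcript length, also deposited, was used for CPM per kilobase.

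Counts were rounded and tested with edgeR 4.0.16 (R 4.3.3): TMM, filterByExpr, quasi-likelihood test on all 9 cultures with group as the one term, Benjamini-Hochberg over 15362 genes. A gene was called at an adjusted p under 0.05. The fold limits were 1.5 on the log2 scale against Control and 1.5-fold for 5-ASA. Depth was 19733464 to 28192769 estimated counts and the common biological coefficient of variation 5.11%. Pairs of cultures of a group differed by 4.25 to 8.10 in chi-square per degree of freedom, so none looked like the same library. The script was tested on simulated data. Alternatives used DESeq2 1.42.0 and limma 3.58.1.

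The members and gene lists were chosen with earlier results of these data known. Values in each culture are given for members called at more than 1 on the log2 scale in Ad-OSCAR, called with 5-ASA, highest in TPM within their role, or among Axin2, Nkd1, Lef1, Tcf7 and Tcf7l2. Further WNT genes named are the 3 called with the largest change in each direction and a mean of at least 1 CPM over the 3 groups, and others as stated. Gene positions are from GENCODE M21, and promoter sequences are from RefSeq on GRCm38.p6, which covered 28 of the 40 members.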

Additional observations from a re-analysis of the deposited data

How the results depend on the processing

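Over the members named, calls against Control kept direction and side of the threshold in 543 (Ad-OSCAR) and 550 (with 5-ASA) comparisons of a gene and an alternative, and lost the call in 11 and 21. For 5-ASA against untreated Ad-OSCAR 265 were kept and 26 lost. The TPM settings mattered most, and they had no TMM scaling between cultures. With limma on log2(TPM + 1), with and without the filter, 6 members passed the fold limit in Ad-OSCAR against Control and 4 in 5-ASA-treated cultures against Control, a scale that lowers folds of low genes by construction. With 5-ASA, 2, 3 and 0 members rose on log2(TPM + 1), log2(TPM + 0.1) and unfiltered log2(TPM + 1), and 1 (Lef1) passed the fold limit on log2(TPM + 0.1). The unfiltered TPM setting also gave 13 further WNT genes called with 5-ASA and 4 members up against Control. Calls of all genes for 5-ASA-treated cultures against Control split into 3101 up and 4874 down on log2(TPM + 1), against 4825 and 4879. The receptor sum differed by 0.11 (log2) with 5-ASA in CPM per kilobase. TMM factors, which the TPM settings did not use, were 1.04 to 1.05 in Ad-OSCAR and 0.995 to 0.998 with 5-ASA. The cause of these shifts was not tested.

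Leaving out each culture in turn gave 5 to 6 members up, 21 to 22 down and 13 to 14 past the limit in Ad-OSCAR, with 37 to 43 further WNT genes called. For 5-ASA it gave 6 to 8 up, 2 to 3 down, 0 past the limit and 22 to 25 further genes, and for 5-ASA-treated cultures against Control 6 to 7, 19 to 22, 10 and 38 to 42. The log2 ratios of summed TPM ran, for ligands, receptors, antagonists and targets, from -0.27 to -0.14, -0.82 to -0.75, -1.94 to -1.82 and -0.23 to -0.11 in Ad-OSCAR. They ran from -0.02 to 0.11, -0.03 to 0.04, -0.03 to 0.08 and -0.18 to -0.07 with 5-ASA, and from -0.21 to -0.13, -0.81 to -0.74, -1.92 to -1.79 and -0.36 to -0.23 against Control.

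Genes near 0 changed sign without a call on either side. Lrp5 in Ad-OSCAR was 0.0014 unfiltered, 0.0116 with 10 counts in every culture, 0.0026 with the compared groups alone, and 0.0253, 0.0259 and 0.0253 in the TPM settings. Leaving out a culture gave it -0.0425 to 0.0398. Lrp5 with 5-ASA was -0.0719, -0.0735 and -0.0719 in the TPM settings and -0.0456 to 0.0882 with a culture left out. Lrp5 against Control was -8.81e-05 by RLE, -0.000126 by DESeq2, -0.0466, -0.0477 and -0.0466 in the TPM settings and -0.0486 to 0.0860 with a culture left out. With 5-ASA, Sfrp2 was -0.0637, -0.0669 and -0.0637 and Tcf7l2 -0.0357, -0.0401 and -0.0357 in the TPM settings, and Tcf7 was -0.251 to 0.0218 with a culture left out.

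Against Control with 5-ASA, Ror2 was lost without Control replicate 1 or 5-ASA replicate 2 (adjusted p = 0.0812 and 0.0927), and Tcf7l2 without Control replicate 1 or 3 or 5-ASA replicate 2 or 3 (0.0516, 0.121, 0.0969 and 0.0552). Cultures with the same replicate number did not deviate together (correlations from -0.0723 to 0.0396), so the number does not pair them. With it as a replicate block, 6 members rose, 21 fell and 13 passed the limit in Ad-OSCAR, 7, 3 and 0 with 5-ASA, and 6, 21 and 10 against Control, with 40, 23 and 41 further WNT genes called. Among the members named, Sfrp4 against Control was the one call it changed (adjusted p = 0.0671). Of the cell type markers called with 5-ASA, Sox9 and Tek no longer passed with the block (adjusted p = 0.0509 and 0.0512). Genes of a few counts, such as Dkk1 and Wnt4, are limited by depth.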
